A study of Mus musculus with 48 samples.

Results

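The genes described here are 3 cytokines of the interleukin-1 family (Il1a, Il1b and Il18), the inflammasome sensor Nlrp3 and the cytokine gene Tnf. They are 5 of the 478 genes that the authors' deposited comparison tables hold for hippocampal microglia of mouse pups, and were taken by name. All 5 were found in each of the 3 tables. The mice were of the Balbc/Byj strain, 17 days old, of both sexes, and belonged to 3 rearing groups of 16 animals: CTL (control), LB and UPS. As background, LB denotes rearing with limited bedding and UPS rearing with unpredictable stress, both used as models of early-life adversity. No genetic change or drug is named in the labels, and every group went through the same Percoll gradient and cell sort, with about 60000 microglia per animal and no separate RNA extraction. Transcripts were counted on the nCounter mouse glial panel, a hybridisation assay that counts barcoded probes without amplification. Below, a gene is called measured if the deposited tables hold it. Whether an absent gene was on the panel, or fell below the limit of 20 counts in the series text, was not examined. The 48 lysates were run in 4 batches of 12, each with 2 animals per rearing group and sex. Each rearing group and sex drew on 4 to 5 litters. Littermates were therefore among the animals, and any likeness between them makes the p-values below too small.

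Interleukin-1 alpha and beta are alarm cytokines that act on one shared receptor. Interleukin-1 beta and interleukin-18 are made as inactive precursors, and an inflammasome, the protein assembly built on sensors such as NLRP3, activates the caspase that cuts them. Transcription of Il1b, Tnf and, in macrophages, Nlrp3 rises when Toll-like receptors or cytokine receptors activate NF-kB, the step known as priming, whereas Il18 is commonly transcribed without it. Microglia are a main source of these cytokines in the brain. Transcript ratios give no measure of the cut, secreted cytokines.

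The promoters differ in a way that is visible in the sequence. They are shown because the members include inducible and steadily transcribed genes. RefSeq promoter entries (build GRCm38.p6, the C57BL/6J reference, not the strain of these mice) existed for all 5 genes. The first stretches below are the bases before the transcription start of Il1b and of Nlrp3, the members that passed a test of rearing. Nlrp3 had 2 entries, and the entry with the lower coordinate is shown. The shorter stretches run from 45 to 16 bases before the start of the other members. Capitals mark the TATA box letters TATAAA and, in Nlrp3, the 10 letters that match the NF-kB consensus motif when read on the opposite strand.
Il1b (chr2:129371165-129371389, minus strand, -250 to -26): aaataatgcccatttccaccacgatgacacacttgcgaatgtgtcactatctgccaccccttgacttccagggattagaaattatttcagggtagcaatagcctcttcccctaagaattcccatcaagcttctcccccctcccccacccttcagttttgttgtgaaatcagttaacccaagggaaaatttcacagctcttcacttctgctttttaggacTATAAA
Nlrp3 (chr11:59541319-59541568, plus strand, -250 to -1): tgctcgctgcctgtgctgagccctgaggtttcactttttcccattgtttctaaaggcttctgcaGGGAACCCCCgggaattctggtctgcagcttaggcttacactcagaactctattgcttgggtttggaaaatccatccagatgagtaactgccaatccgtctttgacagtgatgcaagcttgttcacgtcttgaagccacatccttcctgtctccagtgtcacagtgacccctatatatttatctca
Il1a (chr2:129309988-129310017, minus strand): gcttgaggaagacTATAAAaaggcagagaa
Tnf (chr17:35202023-35202052, minus strand): cctcttccccaagggcTATAAAggcggccg
Il18 (chr9:50554655-50554684, plus strand): tccccagaatgcaaataggagaaccaaaca

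Il1a, Il1b and Tnf each carried TATAAA on the coding strand, with its first base at -32, -31 and -29 from the start. Of 32851 RefSeq promoters, 2.14% held these letters on that strand between -45 and -16, and 12.4% held them on either strand in the 250 bases before the start. Il18 held TATAAA on the opposite strand at -175 and neither promoter entry of Nlrp3 held it. The NF-kB consensus match of Nlrp3 began at -186 in the entry shown, and its other entry had none. On either strand 3.90% of promoters had such a match in 250 bases, and the windows of the other 4 genes had none. Sites further upstream, or with letters that depart from this pattern, were not searched, so the absence of a match does not show that a gene lacks a site. The AP-1 letters TGANTCA, searched on both strands, occurred only in Il1a, at -12, and in 6.75% of all promoters. These matches describe letters in a window, and no binding was measured. Il1a and Il1b are each other's nearest protein-coding neighbour on one side, and no protein-coding gene flanking the other 3 was measured.

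The tables give, for each gene and pair of groups, a log2 ratio with its p-value. Their headers do not name the numerator. For each member, subtracting the CTL and LB value from the CTL and UPS value gave the LB and UPS value to within 0.003, which fixes the signs relative to each other but not their absolute sense. Signs are therefore printed as deposited. Read with the second group as numerator, a negative ratio in a UPS table means less transcript in UPS. The opposite reading turns the sign of every value below together. A gene passed when its Benjamini-Hochberg adjusted p-value, taken over 478 genes, was below 0.05. Values of single animals were not used here, so no count of animals sharing a direction can be given, and within-batch values cannot be shown. A ratio from sorted cells also cannot tell a change in the share of transcribing cells from a change of RNA per cell.

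Il1b was the member with the largest absolute ratios in both UPS comparisons, and it passed against LB but not against CTL. Its log2 ratio between LB and UPS was -1.04 in the authors' deposited table, a linear ratio of 0.487, with a recovered 95% interval from -1.64 to -0.44 (p = 0.00108, adjusted p = 0.0207 by Benjamini-Hochberg). Between CTL and UPS the authors' deposited table gave -0.87, a linear ratio of 0.547, with an interval from -1.47 to -0.27 (p = 0.00534, adjusted p = 0.0797), which did not pass. These were the largest absolute log2 ratios of all 478 genes in either table. By p-value the gene ranked only 25 between LB and UPS and 32 between CTL and UPS. Between CTL and LB the ratio in the authors' deposited table was 0.17 with an interval from -0.43 to 0.76 (p = 0.567), that is from 0.741-fold to 1.70-fold. This interval is wide, and it does not show that CTL and LB have the same Il1b level.

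Nlrp3, which encodes the sensor on which the inflammasome is built, carried the opposite sign to Il1b in both UPS comparisons. Its log2 ratio between CTL and UPS was 0.23 in the authors' deposited table, a linear ratio of 1.17, with an interval from 0.10 to 0.35 (p = 0.000559, adjusted p = 0.0206). It passed there as the gene with rank 13 of the table. Between LB and UPS it was 0.17 in the authors' deposited table (interval 0.043 to 0.29, p = 0.00932, adjusted p = 0.0928) and did not pass. Between CTL and LB it was 0.062 (interval -0.061 to 0.18, p = 0.318, n = 16 animals per group). A test of the difference between the ratios of Nlrp3 and Il1b needs their covariance between animals and was not made.

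Il18, the interleukin-1 family cytokine that promotes interferon-gamma production, had small ratios with the sign of Nlrp3. The authors' deposited tables gave 0.13 between CTL and UPS (interval 0.013 to 0.24, p = 0.03, adjusted p = 0.253), and 0.12 for LB with UPS (interval 0.0099 to 0.24, p = 0.0336, adjusted p = 0.209). Neither passed. Between CTL and LB the log2 ratio was 0.0028 and the interval ran from 0.926-fold to 1.08-fold, the narrowest of the 5 members.

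Il1a, the neighbour of Il1b, had its largest ratio between LB and UPS, -0.25 in the authors' deposited table, a linear ratio of 0.842 (interval -0.42 to -0.080, p = 0.00475, adjusted p = 0.0614). It did not pass. Between CTL and LB the authors' deposited table gave 0.16 (interval -0.0038 to 0.33, p = 0.0547) and between CTL and UPS -0.084 (interval -0.25 to 0.084, p = 0.32). Its sign was that of Il1b in each of the 3 tables.

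Tnf, the gene of tumour necrosis factor, had its largest ratio between CTL and LB. There the authors' deposited table gave 0.42, a linear ratio of 1.34 (interval 0.087 to 0.75, p = 0.0148, adjusted p = 0.272), which did not pass. Between CTL and UPS it was 0.31, or 1.24-fold, with an interval from -0.028 to 0.64 (p = 0.0718) in the authors' deposited table. Between LB and UPS it was -0.11 with an interval from -0.45 to 0.22 (p = 0.49, n = 16 animals per group). Both comparisons with CTL share the 16 control animals, so the ratios are not independent.

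**Figure D1:**
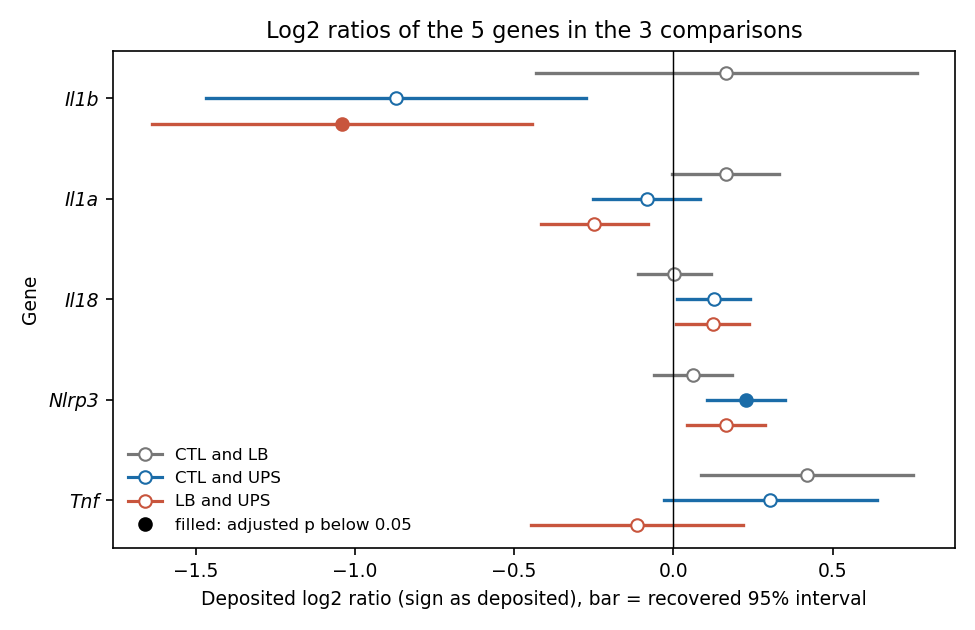
Deposited log2 ratios of the 5 genes on the horizontal axis, with sign as deposited, for CTL and LB (grey), CTL and UPS (blue) and LB and UPS (red). Bars are recovered 95% intervals and filled points have an adjusted p below 0.05: Il1b between LB and UPS at -1.04 and Nlrp3 between CTL and UPS at 0.23.

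Counted by comparison, 1 of the 5 members passed between CTL and UPS (Nlrp3), where 4.81% of all genes passed, and 1 between LB and UPS (Il1b), where 6.28% passed. With the stricter Benjamini-Yekutieli adjustment neither passed (adjusted p = 0.139 for each, n = 16 per group). Between CTL and LB none of the 5 passed by the authors' test with Benjamini-Hochberg adjustment, and 0% of the 478 genes did. At an unadjusted p below 0.05 there was 1 member between CTL and LB (Tnf, 11.7% of all genes), 3 between CTL and UPS (Il1b, Il18 and Nlrp3, 16.3% of all genes) and 4 between LB and UPS (all but Tnf, 18.8% of all genes). The median absolute log2 ratio of the members was 0.16, 0.23 and 0.17 in the 3 tables, against 0.043, 0.051 and 0.054 for all genes. These medians do not compare genes of equal precision. Each member's recovered standard error, from 0.057 for Il18 to 0.30 for Il1b, was above the median of 0.050 over all genes. The members were proposed with results of these data known, so these counts are descriptions. All 5 ratios were positive between CTL and LB, 3 of 5 between CTL and UPS and 2 of 5 between LB and UPS, where 52.7%, 48.7% and 43.9% of all genes were positive.

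To ask once per gene whether rearing mattered, a test over the 3 groups was built from the 3 ratios and their recovered standard error (an F test with 2 and 42 degrees of freedom, adjusted over 478 genes, n = 16 animals per group). Il1b and Nlrp3 passed it. With n = 16 per group, Nlrp3 had F = 7.46 (p = 0.00169, adjusted p = 0.0279) and Il1b F = 7.10 (p = 0.00221, adjusted p = 0.0341). Il1a (F = 4.60, p = 0.0156, adjusted p = 0.123), Tnf (F = 3.45, p = 0.0411, adjusted p = 0.226) and Il18 (F = 3.29, p = 0.0472, adjusted p = 0.240) did not pass with the same n = 16. So 2 of 5 members passed where 6.90% of all genes did, and neither did with Benjamini-Yekutieli adjustment (adjusted p = 0.188 for Nlrp3 and adjusted p = 0.230 for Il1b, n = 16 per group). Before adjustment all 5 were below 0.05, where 19.7% of all genes were.

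Each group was then set against the mean of the other 2, which shows where each member's groups divide. UPS stood apart for Il1b, at -0.96 on the log2 scale or 0.516-fold (interval -1.47 to -0.44, p = 0.000576, adjusted p = 0.0110, n = 16 per group). It stood apart for Nlrp3 as well, at 0.20 or 1.15-fold (interval 0.090 to 0.30, p = 0.000573, adjusted p = 0.0110, n = 16 per group). These 2 members passed for UPS, where 7.32% of all genes passed. With Benjamini-Yekutieli adjustment neither did (adjusted p = 0.0744 for each, n = 16 per group). Il18 had 0.13 for UPS (p = 0.0140, adjusted p = 0.124, n = 16 per group) and did not pass.

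The other members divided elsewhere, without passing. For Il1a the smallest p belonged to LB, at 0.21 or 1.15-fold (interval 0.061 to 0.35, p = 0.00657, adjusted p = 0.119, n = 16 per group), and 2.72% of all genes passed for LB. For Tnf it belonged to CTL, at -0.36 or 0.778-fold (interval -0.65 to -0.074, p = 0.0151, adjusted p = 0.244, n = 16 per group). For CTL 0% of all genes passed by this test. By smallest p, the group apart was thus UPS for Il1b, Nlrp3 and Il18, LB for Il1a and CTL for Tnf. Taking the smallest of 3 p-values per gene is a choice made on the values.

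**Figure D2:**
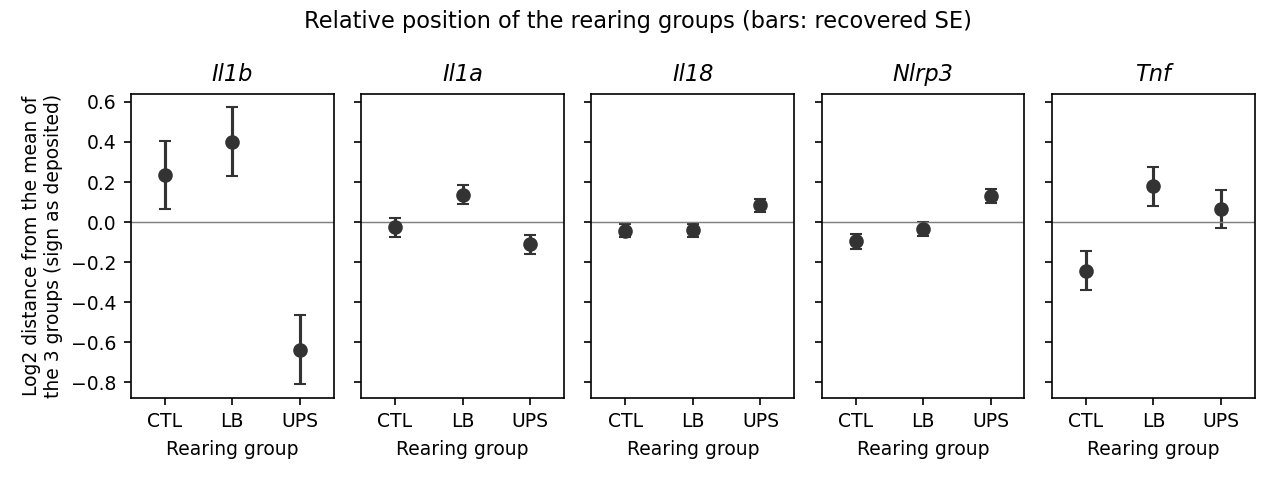
Distance of each rearing group (CTL, LB, UPS) from the mean of the 3 groups on the log2 scale, sign as deposited, with bars of 1 recovered standard error. Il1b has UPS at -0.64 and LB at 0.40, and Nlrp3 has UPS at 0.13 and CTL at -0.097.

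Ordered by these distances in the deposited sign, Il1b ran from LB (0.40) through CTL (0.24) to UPS (-0.64), each with a standard error of 0.17. LB and CTL were neighbours that did not differ beyond their error. Il1a had the same order, LB at 0.14, CTL at -0.027 and UPS at -0.11 with a standard error of 0.048, and neither neighbouring pair passed. Nlrp3 ran from UPS (0.13) through LB (-0.035) to CTL (-0.097), and LB and CTL did not differ beyond error. Il18 placed UPS at 0.084 above LB at -0.040 and CTL at -0.043, the latter nearly level. Tnf placed LB at 0.18, UPS at 0.064 and CTL at -0.24 with a standard error of 0.095, and LB and UPS did not differ beyond error. No neighbouring pair of any member passed by the authors' test. The adjusted p was 0.0797 for Il1b between CTL and UPS and 0.0928 for Nlrp3 between LB and UPS. It was 0.209 for Il18 between LB and UPS and 0.345 for Tnf between CTL and UPS.

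The members also differed in how precisely their ratios were known. The standard error of a pairwise log2 ratio, recovered from each ratio and its p-value, was 0.30 for Il1b, rank 7 from the widest of the 478 genes, and 0.17 for Tnf, rank 28. It was 0.083 for Il1a (rank 88), 0.061 for Nlrp3 (rank 155) and 0.057 for Il18 (rank 184), beside a median of 0.050 over all genes. With 16 animals a group this corresponds to a residual SD between animals of 0.84 log2 units for Il1b, 0.47 for Tnf, 0.24 for Il1a, 0.17 for Nlrp3 and 0.16 for Il18, against a median of 0.14. The 95% interval therefore reached 1.51-fold to either side for Il1b and 1.26-fold for Tnf, but only 1.09-fold for Nlrp3 and 1.08-fold for Il18. Of all genes 6.90% passed the test over 3 groups. Il1b was 1 of 4 genes of the 48 with the widest errors that passed it. The others were Adrb1, Cd34 and Kitl, named after their values were seen. Probe counts per gene were not used here, so whether a wide error came with low counts or with differences between animals was not tested.

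**Figure D3:**
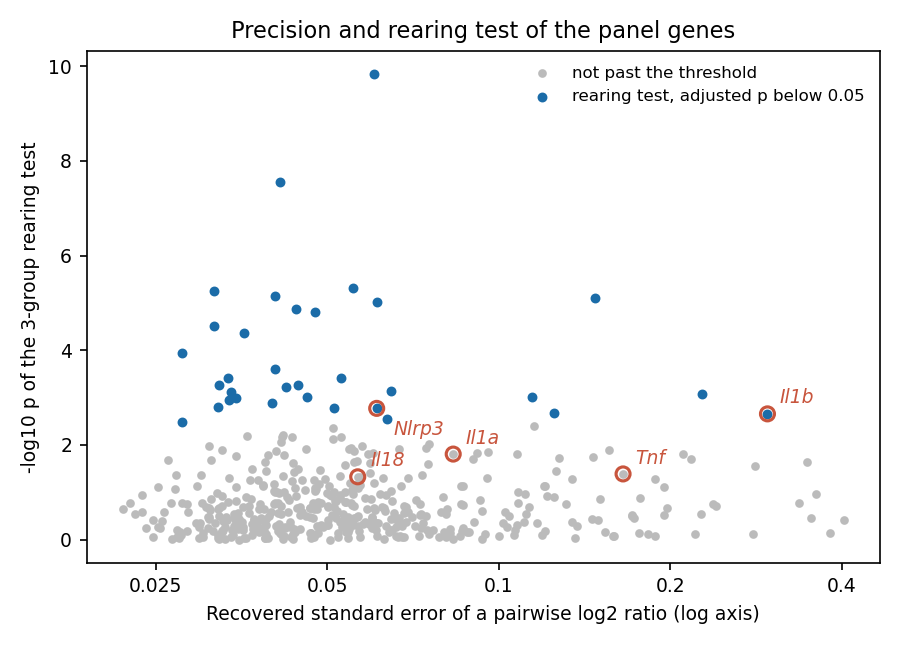
Recovered standard error of a pairwise log2 ratio (log axis) against -log10 p of the 3-group rearing test for the 478 genes. Blue points have an adjusted p below 0.05 and red circles are the 5 members: Il1b lies at a standard error of 0.30 and Il18 at 0.057.

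The genes nearest to each member over the 3 groups were found by the root mean square difference of the 3 pairwise log2 ratios, with no test. This measure weighs size as well as shape, so a gene with very large ratios lies far from all others. The gene nearest to Il1b was Klrd1, a natural killer cell receptor, at 0.43, followed by Cyp2u1, a fatty acid hydroxylase (0.49), and the receptor Gpr84 (0.56). The distance of 0.43 was the largest from any gene to its nearest, beside a median of 0.0051, so Il1b had no close neighbour. Between CTL and LB Klrd1 (-0.30), Cyp2u1 (-0.088) and Gpr84 (-0.0026) had the opposite sign to Il1b (0.17). Genes with a similar shape at smaller size do not count as near. Kcnk13 (0.0044, -0.11 and -0.11 in the authors' deposited tables) and Tomm70a (0.0019, -0.12 and -0.12) are examples, named after their values were seen. Likeness of shape alone was not computed. Nearest to Il1a were Csf1, the growth factor of microglia and macrophages (0.044), and the pyruvate dehydrogenase subunit Dlat (0.064). Tnf was nearest to the cyclin Ccnb1 (0.072), the chemokine Ccl12 (0.076) and the microtubule regulator Stmn1 (0.087). Nlrp3 was nearest to the small GTPase Rhob (0.011) and then to the deubiquitinase Stambpl1 and the scavenger receptor Stab1 (0.037 each). Il18 was nearest to the lipid carrier Apoe (0.0051), the glycosyltransferase Ggta1 (0.0055) and Cttnbp2nl (0.0065). With 3 groups a pattern has little room to differ, and many genes with ratios near 0 lie close together.

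Of the genes that work around these members, 6 of 20 listed inflammasome genes were measured, 5 besides Nlrp3. Only Kcnk13 passed, the THIK-1 channel whose potassium efflux is known to promote NLRP3 activation in microglia. It was at -0.11 in the authors' deposited table for CTL with UPS (adjusted p = 0.0461) and at -0.11 for LB with UPS (adjusted p = 0.0244), opposite in sign to Nlrp3. P2rx7, the ATP receptor upstream of NLRP3, was at 0.055, 0.052 and -0.0029 in the authors' deposited tables and did not pass, nor did the lysosomal protease Ctsb or the sensor Nlrp1b, the latter at -0.054 between CTL and UPS. None of the 5 passed between CTL and LB. Of the 15 listed interleukin-1 family ligands, receptors and inhibitors, the 3 members were the ones measured.

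The receptors that prime Il1b and Nlrp3 transcription were represented by 5 of 13 listed genes. Between CTL and UPS 3 passed in the authors' deposited table, Tlr7 (0.45) and Tlr4 (0.17) with the sign of Nlrp3 and Tlr2 (-0.19) with the sign of Il1b. Between LB and UPS 2 passed, Tlr7 (0.49) and Tlr4 (0.15), and the authors' deposited table had Tlr2 at -0.14 (adjusted p = 0.111). The lipopolysaccharide coreceptor Cd14 was at -0.12 between CTL and LB and 0.11 between LB and UPS, without passing. The adaptor Ticam1, the 1 measured gene of the MyD88, IRAK and NF-kB list, did not pass, at 0.032, 0.011 and -0.021 in the authors' deposited tables.

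Of 23 listed cytokines and chemokines driven by NF-kB 4 were measured and none passed. Ccl12, a monocyte-attracting chemokine, had 0.44 between CTL and LB (p = 0.00475, adjusted p = 0.194) and 0.22 between CTL and UPS in the authors' deposited tables. Csf1 had 0.20, -0.021 and -0.22 in the 3 deposited tables, Ccl2 had 0.27, 0.11 and -0.15, and Ccl3 had 0.16, 0.086 and -0.078. Their median was 0.23 between CTL and LB and -0.18 between LB and UPS, against 0.0035 and -0.010 over all genes. All 4 ratios were positive between CTL and LB and negative between LB and UPS, the signs that Tnf, Il1a and Il1b had there. Nlrp3 and Il18 were positive between LB and UPS (0.17 and 0.12). Of all genes 52.7% were positive between CTL and LB and 43.9% between LB and UPS. Both comparisons share the 16 LB animals, so the 2 signs are not independent. Of the anti-inflammatory and glucocorticoid-responsive list 2 of 20 were measured, Tgfb1, which the authors' deposited table put at -0.076 between LB and UPS (adjusted p = 0.0726), and the interleukin-10 receptor Il10ra, at -0.038 between CTL and UPS. Neither passed.

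**Figure D4:**
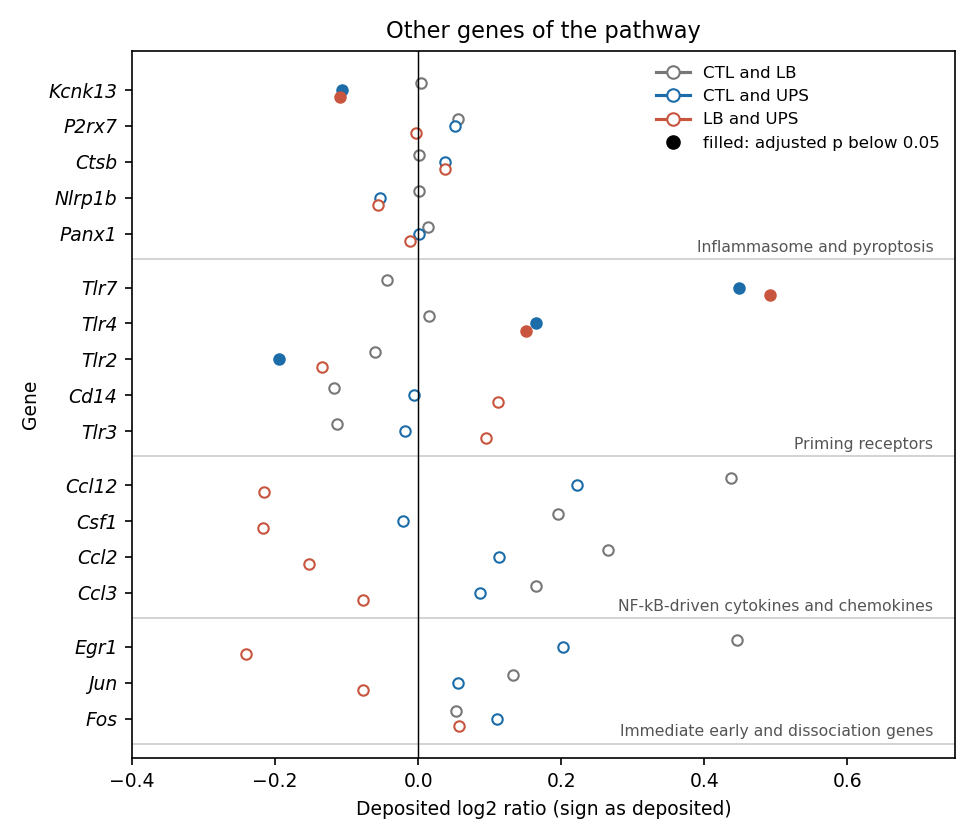
Deposited log2 ratios, sign as deposited, of the measured inflammasome, priming receptor, NF-kB-driven and immediate early genes other than the members, in the 3 comparisons. Filled points have an adjusted p below 0.05: Kcnk13, Tlr7 and Tlr4 in both UPS comparisons and Tlr2 between CTL and UPS.

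Il1b and Tnf are also among the genes that cell isolation can induce in microglia, together with immediate early genes. Of 23 listed genes of that kind 3 were measured. Egr1 was at 0.45 between CTL and LB (p = 0.0709), 0.20 between CTL and UPS and -0.24 between LB and UPS in the authors' deposited tables, Jun at 0.13, 0.056 and -0.077, and Fos at 0.053, 0.11 and 0.057. None passed. Egr1 and Jun shared the sign of Il1b and Tnf between CTL and LB and between LB and UPS, and that of Tnf but not Il1b between CTL and UPS. Fos differed from Egr1 and Jun between LB and UPS, where it was positive and Il1b and Tnf were negative. Between CTL and LB all 5 members were positive and none passed. By the authors' test Il18 was at 0.0028 (p = 0.961) there, Nlrp3 at 0.062 (p = 0.318) and Il1b at 0.17 (p = 0.567). The part of cell isolation in the cytokine ratios was not tested.

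All 12 listed microglial markers were measured, and their levels cannot be read from ratios. Tmem119, a microglial surface protein, passed between LB and UPS (0.46, adjusted p = 0.0076), and the other 11 passed for no pair in the authors' deposited tables. Markers of other cells were few. Csf3r, the 1 measured of 11 neutrophil and monocyte genes, was at -0.17, -0.062 and 0.11 in the 3 deposited tables and did not pass. Its sign was opposite to that of Il1b between CTL and LB and between LB and UPS, and like it between CTL and UPS. Of 2 measured border macrophage genes, Stab1 passed in both UPS comparisons with the sign of Nlrp3 (0.21 and 0.20 in the authors' deposited tables for CTL and for LB), while Cd74 did not pass (0.084 and -0.21). Of 2 astrocyte genes Slc1a3 passed in both (0.21 and 0.25 in the authors' deposited tables) and Glul in neither (0.11 and 0.15). Of the lymphocyte and natural killer list Klrd1 was the 1 gene of 12 measured, at -0.77 in the authors' deposited table for CTL with UPS (adjusted p = 0.294). For the 2 measured vascular genes the authors' deposited table gave -0.40 (Cd34, adjusted p = 0.0511) and 0.033 (Pecam1) there, and neither passed for any pair. Cd34 was at -0.42 between CTL and LB (adjusted p = 0.194) in the authors' deposited table and passed the F test over 3 groups (adjusted p = 0.0333). The oligodendrocyte lineage genes Cspg4 and Mag and the neuronal gene Gad1 passed in no pair. The part of other cells in the ratios of the members was not tested.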

How the data were processed

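The authors' deposited tables, 1 for each of 3 pairs of rearing groups, hold for each gene, per the file headers, a log2 ratio, the same ratio as a linear fold, a p-value and its Benjamini-Hochberg adjustment. Per the series text, the tables come from nSolver's advanced analysis with batch as a covariate, after a multivariate analysis of variance of genes above 20 counts. How counts were normalized, and with which housekeeping genes and software version, is not given in the sources used here. Depth per library is unknown.

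The deposited p-values were adjusted over the 478 genes of each table, and the calls equalled those of the deposited column. Standard errors were recovered from ratio and p-value with 42 residual degrees of freedom, those of 1 model of 48 libraries with rearing and batch, since the tables' standard errors then differed least (median 0.157%, against 0.460% for fits of 2 groups with batch). With sex added the gap was 0.163%, so the choice between these is not settled. The plan had assumed that the authors' fits could be of 2 groups. F was the sum of the 3 squared t values divided by 3, and 1 group against the others had the pairwise standard error times the square root of 3, divided by 2. Both hold for equal groups and were tested on simulated data (Python 3.11.15, SciPy 1.17.1, NumPy 2.4.6).

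The members and lists were chosen with earlier results of these data known. Up to 4 genes per list with the smallest rearing p were named, with every gene past the threshold, and the 3 genes most like each member. A few genes that meet this rule are not reported here. Of the 478 symbols 476 matched RefSeq (GRCm38.p6). The tables name no build. Alternatives were another adjustment, centring, other degrees of freedom, and leaving out the 10% of genes with the widest errors.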

Additional observations from a re-analysis of the deposited data

How the results depend on the processing

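With Benjamini-Yekutieli adjustment 0 members passed between CTL and UPS, between LB and UPS, in the test over 3 groups and for UPS against the mean of the others (Il1b 0.139 between LB and UPS and Nlrp3 0.139 between CTL and UPS as adjusted p). Leaving out the 48 genes with the widest errors removes Il1b and Tnf, which leaves 0 members past the threshold between LB and UPS, 1 in the test over 3 groups and 1 for UPS against the others, all by construction. Centring each table on its median gave Il18 a log2 ratio of -0.00072 between CTL and LB, the 1 reversal of sign. The other 21 counts of members stayed within 1.5 times their values. Of 131 values of single members 124 were unchanged, among them those with the 3 tables adjusted together. Also among them were those with 27 degrees of freedom, which changed the interval widths by at most 2.91%. Most of the 124 belong to values that had not passed to begin with, and the interval widths have no direction or call. With Benjamini-Yekutieli adjustment 6 values lost their call, which were all the single values that had passed. No paired analysis was possible because the tables hold no values per animal, and for the same reason no animal could be left out. Litter could not be added to the tests, and whether the authors' fit held sex is not settled.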

Other observations

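The series text reports 87 genes for rearing by the authors' multivariate analysis of variance. The test over 3 groups built here gave 94 genes at an unadjusted p below 0.05 and 33 after Benjamini-Hochberg adjustment. Its text does not say whether the 87 were adjusted. All 5 members were among the 94, with Il18 at the last place of them, rank 94. The same text gives 13 genes for sex and 5 for the interaction of sex and rearing; whether a member was among them was not analysed here.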
